A study of Rattus norvegicus with 352 samples.

Results

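The 86 brain libraries with the highest level of Gfap were compared with the 86 of lowest Gfap level. Gfap encodes glial fibrillary acidic protein, the intermediate filament by which astrocytes are commonly recognised. The libraries were chosen by their measured Gfap level and by nothing else. All libraries were divided at the 25th, 50th and 75th percentiles of that level into 4 bins: Gfap-low (86 libraries), lower middle (85), upper middle (85) and Gfap-high (86). By their labels all came from frozen whole brain hemispheres of naive, untreated outbred rats, and polyA RNA was sequenced. The extraction protocol speaks of microdissections, so the exact dissection is not settled. The labels place every sample in 1 group, with no treatment, and give neither sex nor age, so Gfap-high and Gfap-low are no groups of the study's design. The labels do not say that each library came from a separate rat, and p-values measure only the spread between these libraries.

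Astrocytes clear glutamate and potassium from the space around synapses, move water at the endfeet that sheathe blood vessels, store glycogen and supply lipids to neurons. Gfap protein is most abundant in astrocytes of white matter, of the hippocampus and under the brain surface, is sparse in many cortical astrocytes, and increases when astrocytes become reactive after injury. Vim (vimentin), Nes (nestin) and Synm (synemin) are filament proteins that assemble with it, and the transcription factor Sox9 marks astrocyte nuclei in much of the adult brain. In RNA of a whole hemisphere, more cells of a type and more RNA per cell cannot be told apart.

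The level of Gfap (chromosome 10, 88352987 to 88361661 on GRCr8) spanned a narrow, continuous range. A level is log2(CPM + 1): CPM stands for the estimated counts of a gene after its library is scaled to a total of 1000000, and transcript length is not taken into account. The Gfap level ran over 8.43, 8.84 and 8.95 (lowest, median and highest) in the Gfap-low bin, 8.95, 9.02 and 9.08 in the lower middle bin, 9.08, 9.14 and 9.21 in the upper middle bin and 9.21, 9.31 and 9.80 in the Gfap-high bin. The median was 632 CPM in Gfap-high and 458 CPM in Gfap-low libraries. These values chose the libraries and are a description. There was no gap at either boundary: the lowest library inside Gfap-high stood at 9.213 and the highest outside it at 9.212, and the highest library inside Gfap-low stood at 8.952 and the lowest outside it at 8.954. The 2 extremes lay apart: the highest library had 9.80, where the next had 9.448, and the lowest had 8.43, where the next had 8.578.

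Of 16682 other genes whose level averaged at least 1 over all libraries, 3553 (21.3%) were higher and 6262 (37.5%) were lower in Gfap-high than in Gfap-low libraries at an adjusted p under 0.05 in limma's moderated test, and "rose" and "fell" are used only of such genes. The median difference over all tested genes was -0.017. With median ratio scaling in place of library totals, 5714 rose and 4824 fell, and the share of calls that rose was 54.2% against 36.2%. That scaling shifted the median gene by 0.025, and the bins were drawn again on it, so that 83 of 86 Gfap-high and 84 of 86 Gfap-low libraries were the same. The median library total was 22089998 estimated counts in Gfap-high and 21613888 in Gfap-low libraries, with a range of 5418230 to 42980793 over both bins (permutation test, two-sided, adjusted p = 0.813 over 3 measures). Genes above 0 numbered 26178 in the median Gfap-high library and 26544 in the median Gfap-low library (adjusted p = 0.0422 by the same test), and ribosomal RNA took 0.533% of counts in Gfap-high and 0.502% in Gfap-low libraries (adjusted p = 0.0525). Among the Gfap-low libraries, 4 had the lowest summed levels of regional, choroid plexus or meningeal genes of all libraries, and 1 Gfap-high library had the highest summed level of interferon and histocompatibility genes. Without these 5 libraries 3410 genes rose and 6187 fell, and without the 2 libraries of extreme Gfap level the counts were 3515 and 6274.

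Sox9, the other marker by which the bins might be read as rich and poor in astrocytes, did not pass the test. Its level ran over 3.86, 4.68 and 5.11 (lowest, median and highest) in Gfap-high and over 3.99, 4.64 and 5.04 in Gfap-low libraries. The ranges overlapped almost entirely, and the difference was 0.032 ± 0.036 (SE, adjusted p = 0.46, limma). Slc1a2, the glutamate transporter GLT-1 that astrocytes carry in most brain regions, did not pass either: its level was 11.19, 11.43 and 11.62 in Gfap-high and 11.06, 11.43 and 11.66 in Gfap-low libraries. Its difference of 0.0082 had a 95% interval of -0.025 to 0.041 (adjusted p = 0.696). The bins are therefore named by Gfap and not by a content of astrocytes.

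**Figure D1:**
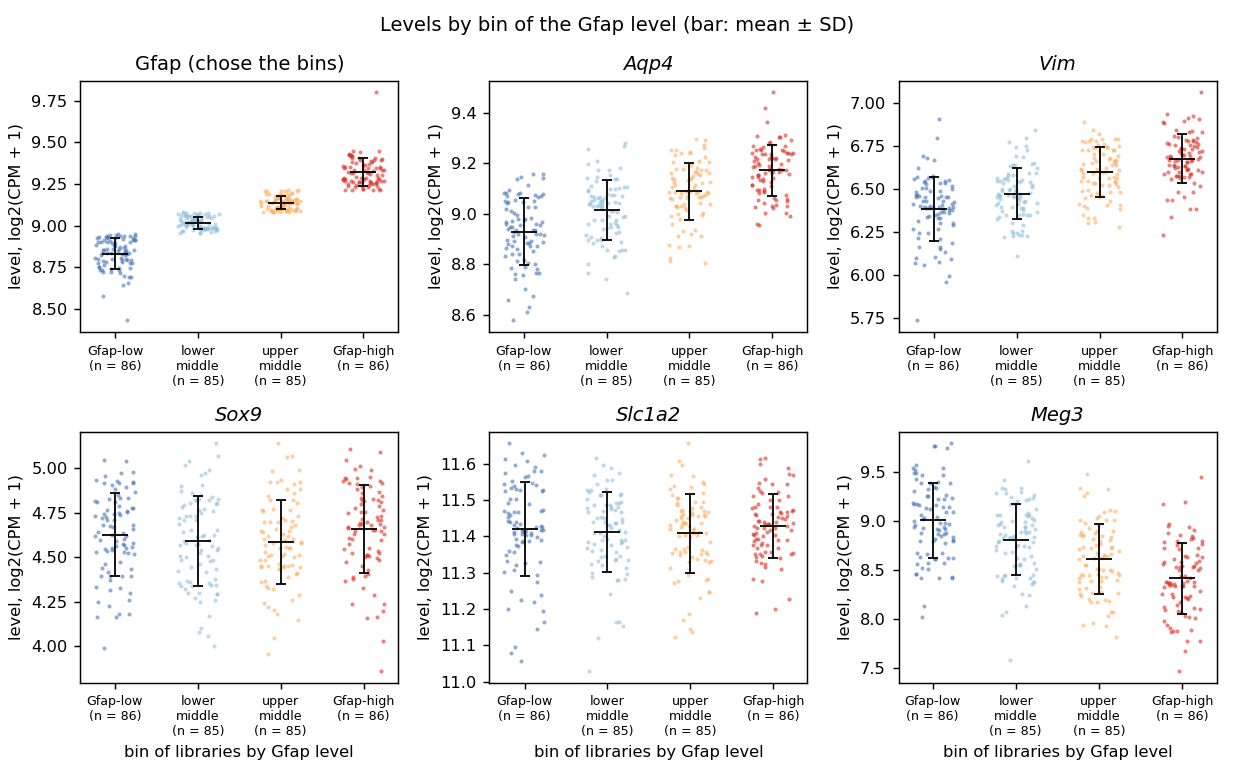
Level of 6 genes, log2(CPM + 1), in each library, by bin of the Gfap level on the x axis (86, 85, 85 and 86 libraries); the bar is the mean ± SD. The means of Aqp4 and Vim go up and that of Meg3 goes down over the 4 bins. Sox9 and Slc1a2 have nearly the same mean in each, and Gfap itself chose the bins.

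Most genes of astrocyte transport were higher in Gfap-high libraries, by small amounts. Of 20 such genes, 16 rose and 0 fell, with a median difference of 0.088, against 21.3% that rose and a median of -0.017 over all genes. Aqp4, the water channel of astrocyte endfeet, had the smallest adjusted p of all genes together with Igfbp2. The Aqp4 level was 8.96, 9.18 and 9.48 (lowest, median and highest) in Gfap-high and 8.58, 8.94 and 9.16 in Gfap-low libraries. All 86 Gfap-high libraries lay above the Gfap-low median, although the ranges overlapped between 8.96 and 9.16. The difference was 0.24 ± 0.018 (adjusted p = 1.7e-25, limma), or 18.3% in CPM.

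Mlc1, a membrane protein of the same endfeet, rose by 0.12 ± 0.012, with 83 of 86 Gfap-high libraries above the Gfap-low median. Atp1b2, a sodium pump subunit of astrocytes, rose by 0.16 ± 0.018, and the receptor gene Gpr37l1 by 0.16 ± 0.020. Kcnj10, the potassium channel Kir4.1, rose by 0.13 ± 0.018. Slc1a3, the glutamate transporter GLAST, rose by 0.054 ± 0.013, Glul, which makes glutamine from glutamate, by 0.082 ± 0.020, and Gja1, the gap junction protein connexin 43, by 0.066 ± 0.014. Slc1a2, Gjb6, Slc7a10 and Slc15a2 were the 4 transport genes that did not pass.

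Genes of astrocyte metabolism and lipid handling moved the same way, 19 of 25 higher and 2 lower (median 0.069). Scd2, a fatty acid desaturase, was at 11.33, 11.61 and 11.78 in Gfap-high and at 11.21, 11.45 and 11.66 in Gfap-low libraries, a difference of 0.17 ± 0.014 (adjusted p = 9.33e-21). The levels of the bins overlapped, with 84 of 86 Gfap-high libraries above the Gfap-low median. Pygb, the brain glycogen phosphorylase, rose by 0.13 ± 0.012, Clu (clusterin) by 0.14 ± 0.013, Glud1 (glutamate dehydrogenase) by 0.10 ± 0.011 and Apoe, the main lipid carrier that astrocytes secrete, by 0.12 ± 0.015. The widely used astrocyte markers Aldh1l1 and Aldoc rose by 0.10 ± 0.018 and 0.13 ± 0.017. Gldc, of the glycine cleavage system, and Cyp4f4 fell.

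Of 25 surface and secreted proteins of astrocytes tested, 12 rose and 0 fell, with a median of 0.046. Agt, angiotensinogen, rose by 0.22 ± 0.027 and the endothelin receptor gene Ednrb by 0.20 ± 0.023. The matrix genes Sparc, Bcan and Gpc5 rose by 0.13 ± 0.020, 0.078 ± 0.012 and 0.076 ± 0.014. S100b, a calcium-binding protein of astrocytes and some oligodendrocytes, rose by 0.046 ± 0.014 (adjusted p = 0.0022).

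Transcription factors and precursor genes of astrocytes were the least uniform of the 4 astrocyte lists: of 26, 12 rose and 4 fell (median 0.030). Stat3, which drives Gfap transcription in developing and reactive astrocytes, had levels of 6.03, 6.26 and 6.39 in Gfap-high and 5.96, 6.17 and 6.34 in Gfap-low libraries. The overlap was wide, and 74 of 86 Gfap-high libraries exceeded the Gfap-low median for a difference of 0.081 ± 0.011 (adjusted p = 2.76e-10). Nfix rose by 0.10 ± 0.016 and Id4 by 0.086 ± 0.016. Zic2 and Otx2 rose by 0.16 ± 0.035 and 0.20 ± 0.038, and these factors also mark the cerebellum and the choroid plexus. Hes1 and Hes5, targets of Notch, fell together with Lhx2 and Etv4, the last by 0.16 ± 0.035.

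Over the 4 astrocyte lists together, 59 of 96 tested genes rose and 6 fell, with a median of 0.060. Median ratio scaling gave 70 and 4. Inside the Gfap-high bin the summed level of these lists ran over 25029, 27621 and 29780 CPM (lowest, median and highest), against 23767, 26003 and 28330 CPM in Gfap-low libraries. When the ribosomal RNA share and the levels of the noncoding RNAs Meg3 and Miat were added to the fit as terms (the RNA terms), 1.86% of all genes tested rose and 1.49% fell, and 14 of the 96 astrocyte genes rose and 0 fell. In that fit Aqp4 (0.17), Mlc1 (0.082), Scd2 (0.086), Clu (0.071), Apoe (0.061), Bcan (0.066) and Kcnj10 (0.072) were still called, and Slc1a3, Glul, Gja1, Aldoc, S100b, Agt and Stat3 were not. A further fit had region scores as terms, which are each library's scores for 7 of the gene lists: cerebellum, choroid plexus, meninges, oligodendrocytes, striatum, hypothalamus and thalamus. With region scores 26 of the 96 astrocyte genes rose and 0 fell. Over all genes tested 6.06% rose and 11.3% fell in that fit, and these are the shares to set beside its counts in the lists below. A list that is itself among the 7 shares its members with these terms.

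Among intermediate filaments other than Gfap, 12 of 17 tested genes rose and 3 fell, with a median of 0.13. Vim had levels of 6.24, 6.68 and 7.06 (lowest, median and highest) in Gfap-high and 5.73, 6.40 and 6.91 in Gfap-low libraries. The ranges overlapped, with 82 of 86 Gfap-high libraries above the Gfap-low median, and the difference was 0.29 ± 0.025 (adjusted p = 8.88e-21). Nes rose by 0.15 ± 0.032 and Synm by 0.11 ± 0.028. Vim and Nes are not confined to astrocytes and are also found in endothelial cells and meningeal fibroblasts.

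Filament genes of neurons were among those that rose. Nefh, Nefm and Nefl, the heavy, medium and light neurofilament chains of large axons, rose by 0.26 ± 0.027, 0.22 ± 0.024 and 0.13 ± 0.014. Prph, the peripherin of motor and sensory neurons, rose by 0.35 ± 0.047, and its level was 3.38, 4.08 and 4.56 in Gfap-high against 2.54, 3.74 and 4.53 in Gfap-low libraries. The nuclear lamins Lmnb1 and Lmnb2 and the linker gene Plec fell. With the ribosomal RNA, Meg3 and Miat terms, Vim was the 1 filament gene still called (0.15), and Nefh stood at 0.068.

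The 250 bases before the start sites of Gfap, Aqp4 and Vim are shown because Gfap chose the bins and Aqp4 and Vim had the smallest adjusted p of the astrocyte and filament lists. They are RefSeq sequence on GRCr8, 5′ to 3′ on the strand of the gene, and capitals mark matches to the motifs searched. The start sites are those of the RefSeq promoter table, which lists 2 for Aqp4: most of the Aqp4 window shown lies inside the annotated span of the gene, since that span reaches further upstream than the start used.
Gfap (chr10:88361662-88361911, minus strand): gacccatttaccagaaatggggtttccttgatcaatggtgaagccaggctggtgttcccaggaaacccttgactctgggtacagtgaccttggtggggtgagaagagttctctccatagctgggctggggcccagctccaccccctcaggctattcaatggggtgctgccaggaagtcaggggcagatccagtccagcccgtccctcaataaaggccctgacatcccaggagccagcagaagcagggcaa
Aqp4 (chr18:6798843-6799092, minus strand): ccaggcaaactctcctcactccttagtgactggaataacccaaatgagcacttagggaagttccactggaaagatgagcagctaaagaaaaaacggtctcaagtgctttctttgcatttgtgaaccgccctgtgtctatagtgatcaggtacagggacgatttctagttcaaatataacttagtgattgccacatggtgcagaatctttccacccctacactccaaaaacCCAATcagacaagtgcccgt
Vim (chr17:81577011-81577260, plus strand): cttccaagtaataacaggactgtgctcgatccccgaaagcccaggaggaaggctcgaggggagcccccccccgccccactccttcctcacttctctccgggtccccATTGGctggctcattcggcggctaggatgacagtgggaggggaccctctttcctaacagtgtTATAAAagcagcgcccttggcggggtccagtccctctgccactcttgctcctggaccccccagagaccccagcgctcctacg
The motifs searched on both strands were TTCNNNGAA (the palindrome bound by STAT factors), CCAAT and TATAAA, none of which overlaps another here. The Aqp4 window held CCAAT once, the Vim window held CCAAT once, on the opposite strand, and TATAAA once, and the Gfap window held no match to these letters. Of 27457 promoter windows of the same length, 7.52% held TTCNNNGAA, 34.3% CCAAT and 13.1% TATAAA, so such matches are common and describe the letters only.

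Genes that reactive astrocytes switch on after injury rose in part: 18 of 31 tested genes rose and 2 fell (median 0.066), and the 7 further genes of the list, among them the defining markers Lcn2, Serpina3n, Cxcl10 and Steap4, were under the level minimum. The complement gene C4a had levels of 4.50, 5.08 and 7.25 (lowest, median and highest) in Gfap-high and 4.42, 4.81 and 5.34 in Gfap-low libraries. The highest Gfap-high library lay far above the Gfap-low range, and the ranges otherwise overlapped, for a difference of 0.27 ± 0.041 (adjusted p = 5.1e-09, limma). Without the 5 libraries that stood apart the C4a difference was 0.24. C3 rose by 0.32 ± 0.059, the complement inhibitor gene Serping1 by 0.33 ± 0.038, the immunoproteasome gene Psmb8 by 0.21 ± 0.036, the elastic fibre gene Fbln5 by 0.18 ± 0.030 and the hyaluronan receptor gene Cd44 by 0.16 ± 0.028. The cytokine gene Clcf1 and the prostaglandin synthase gene Ptgs2 fell. Without the 5 libraries that stood apart 15 rose and 2 fell, with the ribosomal RNA, Meg3 and Miat terms 6 rose and 0 fell, and with region scores 6 rose and 1 fell. With region scores Serping1 stood at 0.06 and Fbln5 at 0.021, neither of them called. C4a stood at 0.23 and Psmb8 at 0.21 in that fit, both still called.

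The signalling genes upstream of Gfap in astrocytes moved less evenly. Of 19 tested genes of JAK-STAT and gp130 signalling, 8 rose and 4 fell (median 0.030): Il6st, the shared receptor chain gp130, rose by 0.083 ± 0.012, Cntfr, the receptor for ciliary neurotrophic factor, by 0.081 ± 0.017 and the phosphatase gene Ptpn6 by 0.12 ± 0.023. The kinase genes Tyk2 and Jak2, the interleukin 6 receptor gene Il6r and Socs2 fell, Tyk2 by 0.18 on the log2 scale. Of 23 genes of BMP, TGF-beta and Notch signalling 13 rose and 1 fell (median 0.043). Tgfbr2, Tgfb1, Bmp6 and Notch3 rose by 0.16 ± 0.021, 0.15 ± 0.026, 0.10 ± 0.019 and 0.20 ± 0.038, and the BMP antagonist gene Chrd (chordin) fell by 0.32 on the log2 scale. Of 16 metallothioneins and antioxidant enzymes 7 rose and 1 fell, with Sod3, the extracellular superoxide dismutase, up by 0.20 ± 0.023. Of 8 genes of Bergmann glia, the radial astrocytes of the cerebellum, 5 rose and 1 fell, with A2m at 0.23 ± 0.034 and Timp4 at 0.13 ± 0.022. With the RNA terms 1 gene rose in each of the JAK-STAT and the BMP lists and 0 in the metallothionein and Bergmann lists, and 0 fell in each of the 4. Tyk2 then stood at 0.0063 and Chrd at -0.035, neither of them called. With region scores 2, 0, 4 and 2 rose in these 4 lists, and 1, 2, 1 and 0 fell.

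Of 18 oligodendrocyte genes tested 13 rose and 1 fell (median 0.12). Mbp, the myelin basic protein that compacts the sheath, had levels of 12.26, 12.48 and 12.90 in Gfap-high and 12.02, 12.37 and 12.62 in Gfap-low libraries. The ranges overlapped between 12.26 and 12.62, and the difference was 0.14 ± 0.017 (adjusted p = 2.08e-12). Cnp and Ndrg1 rose by 0.17 ± 0.020 and 0.15 ± 0.018, Mobp had a difference of 0.017 ± 0.021 (adjusted p = 0.508), and Hapln2, a link protein of the node of Ranvier, fell by 0.26 on the log2 scale. Of 14 genes of oligodendrocyte precursors 9 rose and 1 fell, with C1ql1 at 0.28 ± 0.033, Gpr17 at 0.16 ± 0.019 and the lineage factors Olig1 and Sox10 at 0.15 ± 0.021 and 0.12 ± 0.021. Pcdh15 fell by 0.18 on the log2 scale. With the ribosomal RNA, Meg3 and Miat terms 3 oligodendrocyte genes rose and 0 fell, and with region scores, which include this list, 1 rose and 2 fell (median 0.0019). Of the precursor genes 2 rose with the RNA terms, and 3 rose and 1 fell with region scores.

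Of 19 genes of microglia and macrophages tested 11 rose and 0 fell (median 0.074). Csf1r, the receptor that microglia need for survival, had levels of 5.77, 6.04 and 6.42 in Gfap-high and 5.64, 5.94 and 6.17 in Gfap-low libraries, a difference of 0.12 ± 0.016 (adjusted p = 3.36e-11) with wide overlap. Itgam rose by 0.21 ± 0.037 and Mrc1, of macrophages at the brain's borders, by 0.19 ± 0.041. The genes that most narrowly mark resident microglia did not pass: Tmem119 had a difference of 0.041 ± 0.036 and P2ry12 of 0.028 ± 0.043. Of 22 endothelial and pericyte genes 11 rose and 0 fell (median 0.060), among them Cdh5 at 0.15 ± 0.025, Cldn5, a tight junction protein, at 0.13 ± 0.027 and Vtn of pericytes at 0.17 ± 0.033. Of these 22, 2 rose among libraries of high level of the Y-linked gene Ddx3y taken alone, and 1 rose among those of low level. Of the 19 microglial genes 6 rose in the high and 4 in the low level. Csf1r passed in both levels, Itgam only in the low level and Mrc1 in neither. With the RNA terms 0 of the 22 rose, and with region scores 0 rose and 1 fell, with a median of -0.042. In either of these fits 2 of the 19 microglial genes rose.

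**Figure D2:**
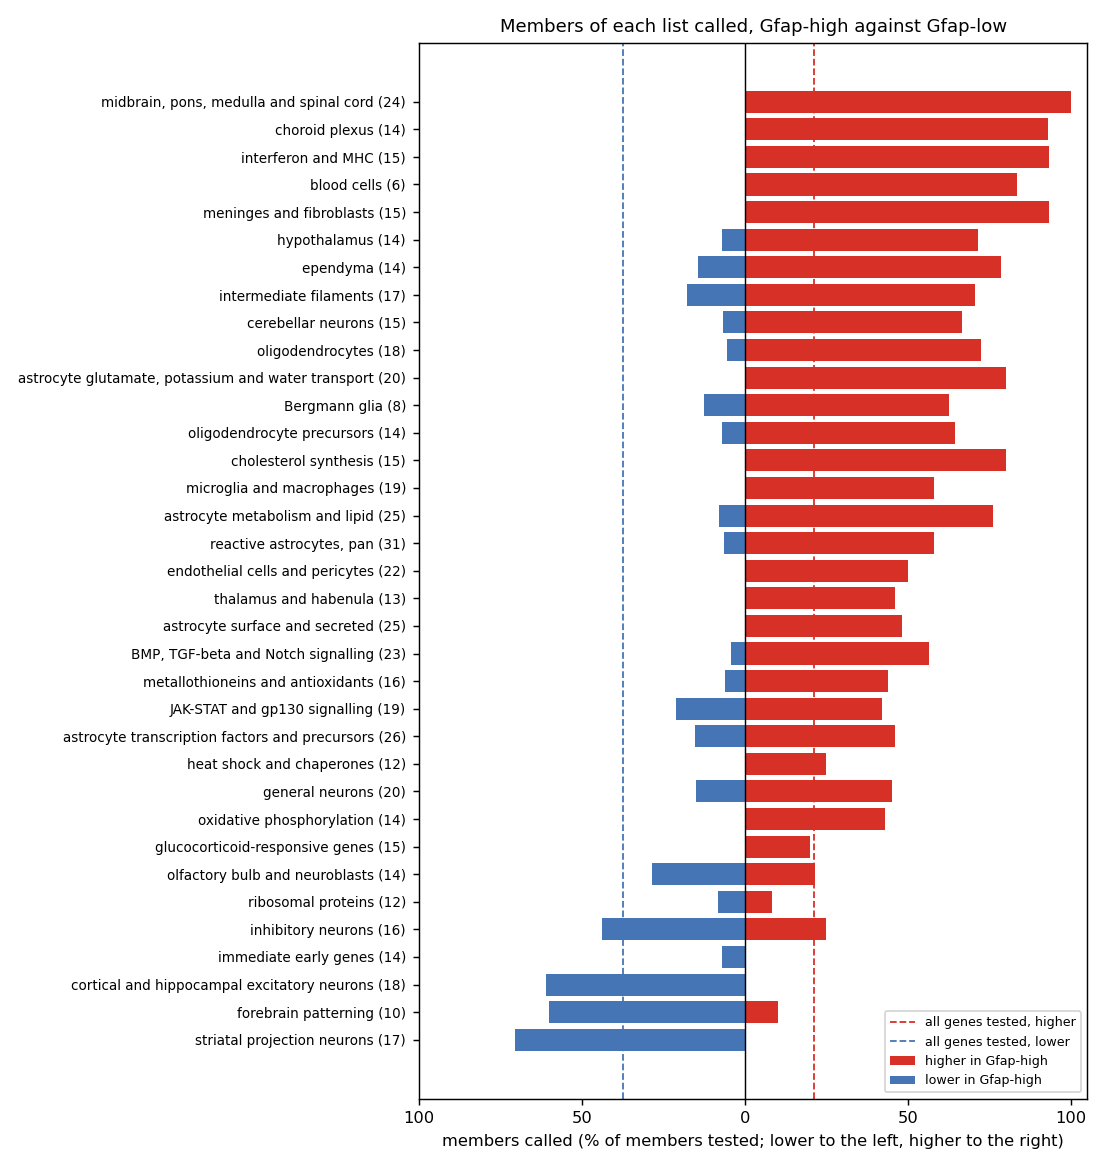
Share of the tested members of each gene list (number in brackets) that were higher, to the right, or lower, to the left, in Gfap-high than in Gfap-low libraries, in percent; dashed lines are the shares over all genes tested, 21.3% and 37.5%, and the list of 3 nuclear noncoding RNAs is left out. All 24 tested genes of midbrain, pons, medulla and spinal cord rose, and none of the cortical or striatal genes did, although with median ratio scaling 3 and 1 of them rose.

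Genes of the brain's linings rose almost throughout. Of 15 genes of meninges and fibroblasts 14 rose and 0 fell, with a median of 0.19. Col1a1, a collagen chain made by fibroblasts, had levels of 4.77, 5.27 and 6.15 (lowest, median and highest) in Gfap-high and 3.98, 4.79 and 5.36 in Gfap-low libraries. Of the Gfap-high libraries 85 of 86 lay above the Gfap-low median, and the difference was 0.47 ± 0.042 (adjusted p = 1.14e-19). Igf2, a growth factor that leptomeninges and choroid plexus secrete, had 6.64, 7.11 and 7.54 in Gfap-high against 6.08, 6.71 and 7.36 in Gfap-low libraries, a difference of 0.44 ± 0.034 (adjusted p = 4.1e-24). Igfbp2, a binding protein of the insulin-like growth factors, had 5.95, 6.27 and 6.67 in Gfap-high against 5.39, 5.93 and 6.38 in Gfap-low libraries. All 86 Gfap-high libraries lay above the Gfap-low median of Igfbp2, for a difference of 0.37 ± 0.027 (adjusted p = 1.7e-25).

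The collagen genes Col1a2 and Col3a1 rose by 0.40 ± 0.037 and 0.38 ± 0.034, the matrix gene Fbln1 by 0.26 ± 0.024 and Aebp1, a protein of collagen assembly, by 0.36 ± 0.027. The summed level of the meningeal list was 1145, 1371 and 1686 CPM in Gfap-high and 687.9, 1194 and 1485 CPM in Gfap-low libraries. With the ribosomal RNA, Meg3 and Miat terms 7 of the 15 rose and 0 fell, and without the 5 libraries that stood apart 14 rose. With region scores, which include this list, 4 rose and 1 fell, the median was -0.015, and Col1a2 stood at 0.048 (adjusted p = 0.184).

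Of 14 choroid plexus genes 13 rose and 0 fell (median 0.25). Enpp2, the secreted phosphodiesterase autotaxin, had levels of 8.34, 8.75 and 9.05 in Gfap-high and 7.80, 8.46 and 8.99 in Gfap-low libraries, a difference of 0.26 ± 0.029 (adjusted p = 4.5e-15). Aqp1, Folr1 and Kl, a water channel, a folate receptor and klotho of the choroid epithelium, rose by 0.31 ± 0.038, 0.31 ± 0.038 and 0.30 ± 0.042, and Ttr (transthyretin) by 0.21 ± 0.044. The summed level of the choroid list was 885.3, 1278 and 1678 CPM in Gfap-high and 644.2, 1098 and 1523 CPM in Gfap-low libraries. With the RNA terms 0 of the 14 were called, and with region scores, which include this list, 1 rose and 1 fell. Of 14 tested ependymal genes 11 rose and 2 fell, with Foxj1, the factor that directs motile cilia, at 0.29 ± 0.034, and the dynein genes Dnah9 and Dnah12 were the 2 that fell, Dnah9 by 0.30 on the log2 scale. With either set of terms 1 ependymal gene rose.

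Interferon and histocompatibility genes rose almost throughout, 14 of 15 tested and 0 lower (median 0.22). Cd74, the invariant chain of class II molecules, had levels of 2.61, 3.93 and 4.95 in Gfap-high and 2.03, 3.52 and 4.96 in Gfap-low libraries. The ranges covered each other, with 76 of 86 Gfap-high libraries above the Gfap-low median and a difference of 0.42 ± 0.063 (adjusted p = 2.87e-09). RT1-Da, a class II chain, rose by 0.31 ± 0.054, Bst2 by 0.27 ± 0.049, Tap1 by 0.22 ± 0.035, Ifi27 by 0.32 ± 0.078 and B2m by 0.12 ± 0.021. The summed level of the list was 269.2, 340.8 and 962.6 CPM in Gfap-high, the top value being the library that stood apart, and 250.7, 305.4 and 398.6 CPM in Gfap-low libraries. Without the 5 libraries that stood apart 13 rose, and with the ribosomal RNA, Meg3 and Miat terms 6 rose. Of 15 genes of cholesterol synthesis 12 rose and 0 fell (median 0.075), and 2 rose with either set of terms.

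All 24 tested genes of midbrain, pons, medulla and spinal cord rose, with a median of 0.29, while 8 further genes of the list were under the level minimum. Slc6a5, the glycine transporter of inhibitory neurons of the hindbrain and cord, had levels of 4.65, 5.43 and 5.90 (lowest, median and highest) in Gfap-high and 2.48, 5.09 and 5.83 in Gfap-low libraries. The Gfap-low bin reached much lower, and the difference was 0.43 ± 0.064 (adjusted p = 2.84e-09). Glra1, a subunit of the glycine receptor, rose by 0.40 ± 0.057 and Sncg (synuclein gamma) by 0.44 ± 0.072.

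Genes of serotonin neurons, which lie in the raphe nuclei of the brainstem, had the widest differences of the autosomal genes named here. Tph2, which makes serotonin in neurons, had levels of 0.85, 3.61 and 4.09 in Gfap-high and 0.45, 2.17 and 4.07 in Gfap-low libraries, and Slc6a4, the serotonin transporter, had 0.26, 2.83 and 3.38 in Gfap-high against 0.00, 1.31 and 3.40 in Gfap-low libraries. Both bins held libraries with almost none of either gene and libraries near the top, while the medians stood far apart. The differences were 1.0 ± 0.14 for Tph2 and 1.03 ± 0.14 for Slc6a4 (adjusted p = 1.48e-10 and 3.5e-11). The Hox genes, which set position along the hindbrain and cord, were low in both bins: Hoxb5 had medians of 1.81 in Gfap-high and 1.38 in Gfap-low libraries, and Hoxa5 of 1.42 in Gfap-high and 0.97 in Gfap-low libraries.

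Summed over the 32 genes of the list, the level was 163.8, 251.9 and 322.4 CPM in Gfap-high and 77.1, 194.5 and 302.2 CPM in Gfap-low libraries. With region scores 1011 genes rose and 1890 fell over all genes, and 7 of these 24 rose and 0 fell. Without the 5 libraries that stood apart 21 of the 24 rose and 0 fell, and with the ribosomal RNA, Meg3 and Miat terms 2 rose.

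Of 14 hypothalamic genes tested 10 rose and 1 fell (median 0.17): Trh, thyrotropin-releasing hormone, rose by 0.45 ± 0.066, Pomc by 0.40 ± 0.079, Otp, a factor of neuroendocrine neurons, by 0.32 ± 0.060 and Cartpt by 0.29 ± 0.057, while Agrp fell by 0.15 on the log2 scale. Of 13 genes of thalamus and habenula 6 rose and 0 fell, with Pou4f1, a factor of the medial habenula and of some brainstem nuclei, at 0.62 ± 0.071 and Slc17a6, the vesicular glutamate transporter of subcortical neurons, at 0.15 ± 0.026. Of 15 cerebellar genes 10 rose and 1 fell (median 0.12), and without the 5 libraries that stood apart the median was 0.079. Cbln3 of granule cells rose by 0.21 ± 0.073, and Gabra6, the granule cell GABA receptor subunit, had medians of 7.31 in Gfap-high and 7.30 in Gfap-low libraries and did not pass (0.10 ± 0.080, adjusted p = 0.293). With the ribosomal RNA, Meg3 and Miat terms 0 genes rose in the hypothalamic, thalamic and cerebellar lists, 1 cerebellar gene fell, and the cerebellar median was -0.041. With region scores, which include these 3 lists, 0, 1 and 0 rose.

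Of 18 genes of cortical and hippocampal excitatory neurons 11 fell and 0 rose, with a median of -0.050. Neurod6, a factor of pyramidal neurons, had levels of 5.16, 5.48 and 5.74 in Gfap-high and 5.30, 5.60 and 5.95 in Gfap-low libraries, a difference of -0.12 ± 0.019 (adjusted p = 1.01e-08). Only 11 of 86 Gfap-high libraries lay above the Gfap-low median. Fezf2 of deep cortical layers also fell by 0.12 on the log2 scale, Mef2c by 0.094 and Tbr1 by 0.083. With median ratio scaling 6 of these 18 fell and 3 rose, and with region scores 3 fell and 2 rose.

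Of 17 genes of striatal projection neurons 12 fell and 0 rose (median -0.072), and 11 fell and 1 rose with median ratio scaling. Arpp21, a phosphoprotein regulated by dopamine, had levels of 7.96, 8.13 and 8.48 in Gfap-high and 8.02, 8.31 and 8.71 in Gfap-low libraries, a difference of -0.18 ± 0.018 (adjusted p = 4.18e-16). Of the Gfap-high libraries 5 of 86 exceeded the Gfap-low median. The phosphodiesterase gene Pde10a fell by 0.14, Rgs9, a brake on dopamine receptor signalling, by 0.17 and the dopamine receptor gene Drd1 by 0.11 on the log2 scale. With the RNA terms 0 of the 17 striatal and 0 of the 18 cortical genes were called, and with region scores, which include the striatal list, 1 striatal gene fell and 3 rose.

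Of 20 general neuronal genes 9 rose and 3 fell (median 0.022), 15 rose and 0 fell with median ratio scaling, and 0 rose and 1 fell with the ribosomal RNA, Meg3 and Miat terms. With region scores 10 rose and 1 fell (median 0.023), where 6.06% of all genes rose and 11.3% fell. Tubb3 and Eno2 rose by 0.12 ± 0.014 and 0.060 ± 0.0084, and the synaptic genes Snap25 and Syt1 and the kinase gene Camk2a fell, although with median ratio scaling Snap25 stood at 0.0035. Of 16 genes of inhibitory neurons 4 rose and 7 fell, near the 21.3% and 37.5% of all genes tested. With median ratio scaling 6 rose and 4 fell, near the 34.3% and 28.9% of all genes in that fit. Slc32a1, the vesicular GABA transporter, rose by 0.12 ± 0.016, and Vip and Dlx1 fell by 0.11 and 0.10 on the log2 scale. Of 10 forebrain patterning genes 1 rose and 6 fell. With median ratio scaling 1 rose and 3 fell, so falls were near the 28.9% of all genes in that fit. None was called with the RNA terms, and with region scores 0 rose and 1 fell. Within either Ddx3y level 1 rose and 2 fell.

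Few genes of neuronal activity and stress fell, where 21.3% of all genes tested rose and 37.5% fell. Of 14 immediate early genes 0 rose and 1, Egr3, fell (-0.089 ± 0.039, adjusted p = 0.041), and without the 5 libraries that stood apart 0 fell. Of 15 glucocorticoid-responsive genes 3 rose and 0 fell, so rises were near the share over all genes. Of 12 heat shock genes 3 rose and 0 fell, also near that share for rises, led by the co-chaperone gene Bag3 at 0.25 ± 0.032. With median ratio scaling 7 rose, where 34.3% of all genes did. Of 12 ribosomal protein genes 1 rose and 1 fell, against 8 and 0 with median ratio scaling, and of 14 genes of oxidative phosphorylation 6 rose and 0 fell. Of 6 blood cell genes tested 5 rose (median 0.22), and within either Ddx3y level 0 of them passed.

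All 3 tested noncoding RNAs of the nucleus fell. Meg3, a maternally expressed noncoding RNA abundant in neuronal nuclei, had levels of 7.47, 8.38 and 9.45 (lowest, median and highest) in Gfap-high and 8.02, 8.99 and 9.79 in Gfap-low libraries. Only 3 of 86 Gfap-high libraries lay above the Gfap-low median, and the difference was -0.59 ± 0.056 (adjusted p = 2.27e-18). Miat, also retained in the nucleus, and Snhg11, a host gene of small nucleolar RNA, each fell by 0.44 on the log2 scale. The summed level of these 3 RNAs was 406.5, 689.4 and 1338 CPM in Gfap-high and 559.9, 998.4 and 1709 CPM in Gfap-low libraries.

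Among protein-coding genes averaging a level of 3 or more, Pnisr, a protein of nuclear speckles, had levels of 6.37, 6.91 and 7.60 in Gfap-high and 6.69, 7.37 and 7.95 in Gfap-low libraries, a difference of -0.47 ± 0.039 (adjusted p = 1.45e-21). Leng8 fell by 0.46 on the log2 scale, Ccnl1, a cyclin of splicing speckles, by 0.31, Nktr by 0.28, Tial1, an RNA-binding protein of stress granules, by 0.26 and Ogt, which in human and mouse cells keeps part of its transcript in the nucleus with an intron, by 0.29. Each of them had at most 4 of 86 Gfap-high libraries above its Gfap-low median. With the ribosomal RNA, Meg3 and Miat terms Pnisr stood at -0.088, Ccnl1 at -0.12 and Ogt at -0.061, all still called, and Leng8 at 0.0023, not called. Rtbdn, Robo3, Slc28a2, Catsperz, Fam227a, Smokl8, L3mbtl1, Rgs11 and Mustn1, the further autosomal genes among the 15 with the largest falls, fell by 0.46 to 0.56 on the log2 scale, and none was called with those terms. Meg3 and Miat moved with the bins, and the ribosomal RNA share did not pass (adjusted p = 0.0525), so the part of Meg3 and Miat and that of Gfap cannot be told apart.

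The 2 genes with the largest differences of all that passed were sex-linked. Xist, the RNA that coats and silences 1 X chromosome, had medians of 0.35 in Gfap-high and 9.46 in Gfap-low libraries (difference -4.77 ± 0.58, adjusted p = 1.17e-12), and the Y-linked helicase gene Ddx3y had medians of 6.10 in Gfap-high and 0.00 in Gfap-low libraries (3.02 ± 0.40, adjusted p = 3.93e-11). Ddx3y fell into 2 separate levels, 5.83 to 6.53 in 48.2% of the libraries and 0.00 to 1.12 in the rest, and the labels give no sex. Libraries of high Ddx3y made up 23 of 86 (26.7%) of the Gfap-low, 29 of 85 (34.1%) of the lower middle, 47 of 85 (55.3%) of the upper middle and 66 of 86 (76.7%) of the Gfap-high bin. Over all 4 bins, their Gfap level was 9.15 ± 0.18 (SD), against 9.01 ± 0.17 (SD) in libraries of low Ddx3y, with ranges of 8.65 to 9.80 and 8.43 to 9.45. Gfap and Ddx3y thus moved together over the bins.

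**Figure D3:**
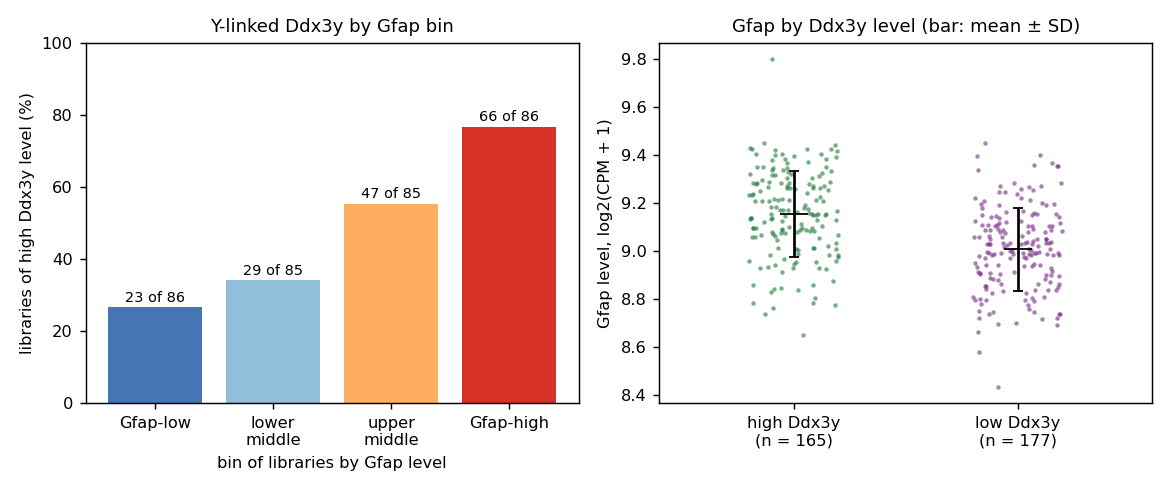
Left, share of libraries of high Ddx3y level in each bin of the Gfap level, in percent, with counts above the bars; right, Gfap level of each library, log2(CPM + 1), by Ddx3y level, with the mean ± SD as a bar. The share grows over the 4 bins, and the Gfap levels of both kinds of library overlap widely.

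Within each Ddx3y level the pooled astrocyte, hindbrain and cord, meningeal, choroid plexus and interferon lists kept their direction. Inside the pooled astrocyte list, the transcription factors and precursor genes had a negative median in the high level. Among libraries of high Ddx3y (66 Gfap-high, 23 Gfap-low) 1885 genes rose and 3643 fell, and among those of low Ddx3y (20 Gfap-high, 63 Gfap-low) 1696 rose and 3375 fell. Of the 96 astrocyte genes 38 rose and 2 fell in the high level and 39 rose and 1 fell in the low level. Of the 26 astrocyte transcription factors and precursor genes among them, 5 rose and 1 fell in the high level (median -0.0067), and 8 rose and 0 fell in the low level (median 0.061). Of the 23 BMP, TGF-beta and Notch genes 2 rose and 2 fell in the high level (median 0.023), and 4 rose and 1 fell in the low level (median 0.053). Over all genes tested 11.3% rose and 21.8% fell in the high level, and 10.2% rose and 20.2% fell in the low level. Of the 24 hindbrain and cord genes 19 and 18 rose, of the 15 meningeal genes 11 and 10, of the 14 choroid plexus genes 11 and 13 and of the 15 interferon and histocompatibility genes 10 and 13, with none lower. Aqp4 differed by 0.21 and 0.20, Vim by 0.20 and 0.27, Meg3 by -0.47 and -0.56, and Col1a1 by 0.28 and 0.33, the last less than the 0.47 over all libraries. With Ddx3y as a term in the fit 3085 genes rose and 5346 fell.

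On the sex chromosomes, 6 of 7 tested Y-linked genes rose and 1 fell, and of 541 X-linked genes 22.9% rose and 33.8% fell. The Y-linked genes Kdm5d, Uty and Eif2s3y rose by 2.42, 1.98 and 2.75, and the X-linked demethylase gene Kdm6a, which escapes inactivation, fell by 0.35 on the log2 scale. Kdm6a differed by -0.12 in libraries of high Ddx3y and by -0.063 in those of low Ddx3y. Of the other 2 X-linked genes among the 15 with the largest falls, Ftx differed by -0.44 and -0.41 and Ints6l by -0.41 and -0.40, against -0.53 and -0.45 over all libraries. Of 16134 genes on autosomes 3423 (21.2%) rose and 6078 (37.7%) fell, shares near those of the X-linked genes.

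**Figure D4:**
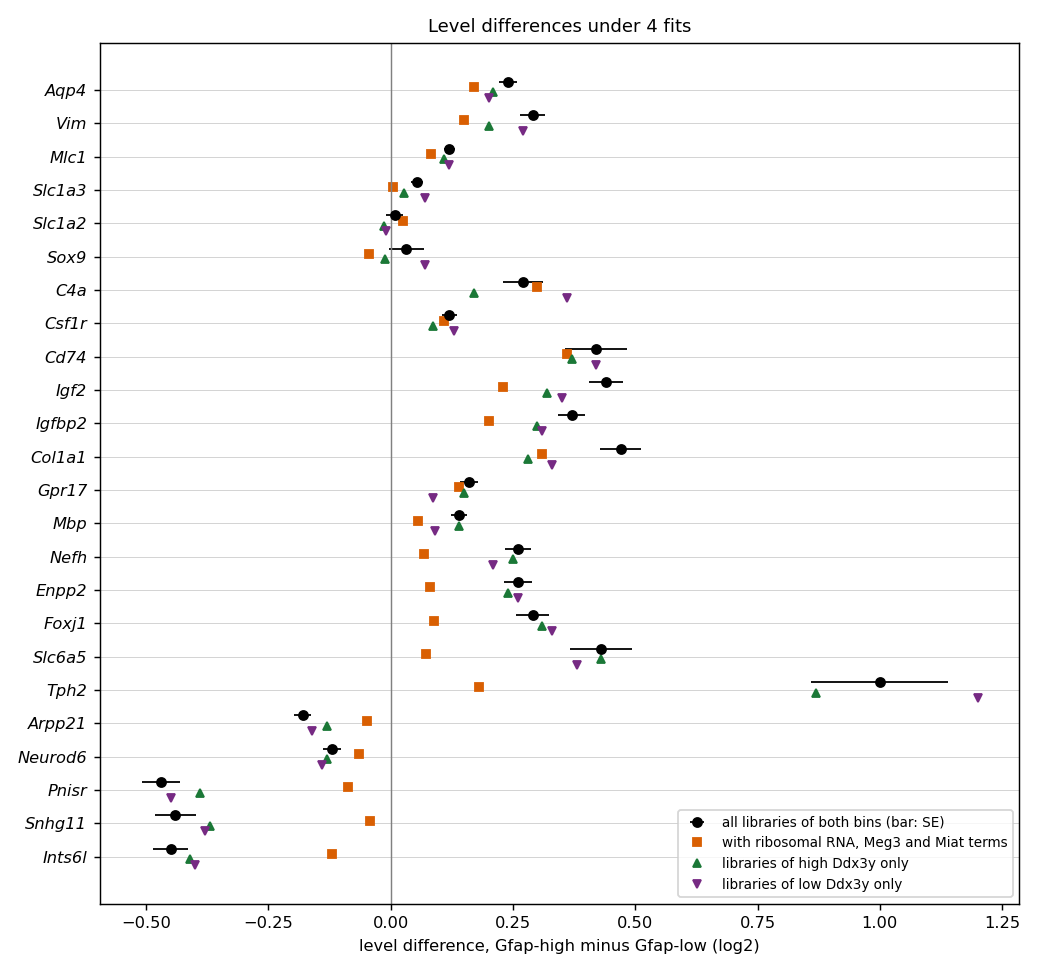
Level difference, Gfap-high minus Gfap-low on the log2 scale, of 24 genes: black circles with SE bars are all libraries of the 2 bins, orange squares the fit with ribosomal RNA, Meg3 and Miat terms, green and purple triangles libraries of high and of low Ddx3y alone. The triangles lie near the circles for most genes, and the squares lie nearer to 0 for most.

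Of 36 genes that start within 500 kb of the start of Gfap on chromosome 10, 25 were tested, and 7 rose and 10 fell, against 21.3% and 37.5% of all genes tested, with a median of -0.014 and differences from -0.25 to 0.28. C1ql1, of oligodendrocyte precursors, was the highest and LOC134480882 the lowest. Fzd2, a Wnt receptor, rose by 0.16 ± 0.030 and Grn (progranulin) by 0.072 ± 0.015, while Gpatch8 fell by 0.15 and Adam11 by 0.19 on the log2 scale. The splicing factor gene Eftud2 had a difference of -0.0049 ± 0.0080.

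The 2 middle bins, whose Gfap medians were 9.14 and 9.02, differed far less. Between the upper middle and the lower middle bin 48 genes rose and 21 fell. Aqp4 averaged 9.09 in the upper and 9.01 in the lower middle bin, Vim 6.60 and 6.47, Col1a1 5.11 and 4.90, Igf2 6.98 and 6.79, Tph2 2.82 and 2.65 and Meg3 8.61 and 8.81. Each of these means lay between those of the outer bins. Aqp4, Vim, Col1a1 and Igf2 were among the 48 genes that rose, and Meg3 did not pass (-0.19, adjusted p = 0.0638, limma).

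Libraries were also compared inside identifier blocks, that is, among those that share the first 6 characters of their identifier, and the labels do not say what a block stands for. Of 10 blocks 4 had at least 5 libraries in each outer bin. With the block as a term 3465 genes rose and 6069 fell. Over the 4 blocks fitted alone, Aqp4 differed by 0.20 to 0.27, Vim by 0.27 to 0.40, Col1a1 by 0.39 to 0.53, Slc6a5 by 0.28 to 0.47 and Meg3 by -0.64 to -0.56.

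A set of 11 genes rose over all libraries and in each of 8 further fits (the term sets named above, an astrocyte score as a term, either Ddx3y level alone and the middle bins): Aqp4, Slc25a18, Vim, Igf2, Igfbp2, Aebp1, Col1a1, Col3a1, Fbln1, C4a and RT1-Da. Slc25a18, a mitochondrial glutamate carrier found in astrocytes, rose by 0.13 ± 0.015. The remaining members are the endfoot water channel, vimentin, insulin-like growth factor genes, collagen and matrix genes, a complement gene and a class II gene. This set was picked by these fits, so its make-up is a description. LOC120100778 was the 1 gene that fell in all of them.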

How the data were processed

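RNA was extracted with TRIzol after mechanical disruption, enriched for polyA and made into directional libraries, per the labels' protocols. The tissue label says whole brain hemisphere, whereas the extraction protocol speaks of microdissections. The submitters' processing notes name kallisto for quantification (version not given in the sources used here). Values in the deposited table are log2 of an estimated count plus 1, and were turned back into estimated counts, of which 63.2% of the low ones were whole within 0.002. The labels name 352 samples, of which 342 are in the table and 10 are not analysed here, and say that 14 libraries were renamed after a mix-up. Of 38354 genes 38278 matched RefSeq (GRCr8) by symbol, the source of coordinates.

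Each library was scaled to CPM by its total of 5418230 to 42980793 estimated counts, which sets the precision of low genes, and a pseudocount of 1 was added before log2, so differences of low genes are understated. Libraries at or above the 75th percentile of Gfap were compared with those at or below the 25th. The fit was limma 3.58.1 in R 4.3.3, with a mean-variance trend, over all genes of mean level at least 1 except Gfap, with Benjamini-Hochberg adjustment over all of them, and was tested on simulated data. Library measures used two-sided permutation tests with 100000 resamples. Terms added in turn, other scalings, minimums and subsets of libraries are given with their effects below. Tables were handled in Python 3.11.15.

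Named genes are the 15 of largest rise and the 15 of largest fall with a mean of at least 3, the 10 of largest moderated t, up to 5 members of each list by t, genes within 500 kb of Gfap, and Gfap and Sox9. Further list members, sex-linked genes and Slc25a18 and Fbln1 were named after their values were seen. Some genes that this rule names are not reported here. The comparison, the lists and the members were chosen with earlier results of these data known.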

Additional observations from a re-analysis of the deposited data

How the results depend on the processing

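Shares within 1.5 times of 21.3% higher and 37.5% lower genes came from a pseudocount of 0.1, an identifier block term, the library total or Ddx3y as a term, other percentiles for the outer bins, a slope on the Gfap level, and leaving out the 5% of libraries with fewest genes, the 2 extreme libraries, or the 5 that stood apart. Other settings moved a share or a count further. Median ratio scaling, with bins drawn again, gave 34.3% higher. A level minimum of 3 kept the shares within 1.5 times, at 24.7% higher and 34% lower, but with 11739 genes tested it gave 3994 lower genes. No level minimum, with the 28939 genes above 0 in at least 20% of libraries tested, gave 12.6% higher (3644 genes). Terms for ribosomal RNA, Meg3 and Miat gave 1.86% higher and 1.49% lower, region scores 6.06% and 11.3%, and an astrocyte score 2.23% and 4.17%. Libraries of high Ddx3y alone gave 11.3% and 21.8%, and those of low Ddx3y alone gave 10.2% and 20.2%. Each subset holds both fewer libraries and a single Ddx3y level, which cannot be told apart. The upper against the lower middle bin, a smaller step of Gfap, gave 0.288% and 0.126%. The cause was not tested for any of these settings.

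Among named genes, these level differences changed sign, most of them close to 0. With the ribosomal RNA, Meg3 and Miat terms they were Robo3 0.08, Smokl8 0.12, L3mbtl1 0.017, Leng8 0.0023, Sparc -0.0045, Etv4 0.023, Tyk2 0.0063, Rgs9 0.012, Zic2 -0.01, Lhx2 0.0078, Adam11 0.022, Sox9 -0.044, Tmem119 -0.00072, Ttr -0.0096, Gabra6 -0.1 and Mobp -0.048. With an astrocyte score, which shares members with the genes it is set beside, they were Sparc -0.03, Cntfr -0.021, Mef2c 0.0064, Vip 0.024, Slc17a6 -0.013, Otp -0.038, Cartpt -0.023, Pomc -0.012, Sox9 -0.14, Slc1a2 -0.031, Slc1a3 -0.016, Glul -0.025, Gja1 -0.016, Aldoc -0.0019, Ttr -0.0021, Gabra6 -0.019 and Mobp -0.022. With region scores they were Bmp6 -0.031, Vtn -0.045, Rgs9 0.0027, Slc17a6 -0.0043, Lhx2 0.028, Eftud2 0.011, Sox9 -0.012, P2ry12 -0.036, Ttr -0.034, Gabra6 -0.065 and Mobp -0.068. With Ddx3y as a term they were Eftud2 0.0005, Slc1a2 -0.011, Uty -0.022 and Kdm5d -0.0075, in libraries of high Ddx3y Ddx3y -0.1, Sox9 -0.011, Slc1a2 -0.014, Uty -0.09, Kdm5d -0.088 and Eif2s3y -0.035, and in those of low Ddx3y Eftud2 0.0092, Slc1a2 -0.0095, Uty -0.021, Kdm5d -0.0039, P2ry12 -0.012 and Mobp -0.0048. Between the middle bins they were Bcan -0.0072, Gpc5 -0.001, Mbp -0.0083, Sox10 -0.0011, Agrp 0.015, LOC134480882 0.0034, Eftud2 0.0039, Sox9 -0.0047, Slc1a2 -0.0033, Tmem119 -0.033 and Mobp -0.031. Median ratio scaling gave Eftud2 0.027 and Snap25 0.0035, the block term Slc1a2 -0.005, and other percentiles Tmem119 -0.011.

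No paired analysis was possible because the labels give a single group, and replicate numbers only name libraries in accession order. Depth limits genes near a level of 1, where the smallest libraries hold few counts. The alternatives on Ddx3y levels, on the 2 extreme libraries and on the 5 libraries that stood apart were chosen after seeing the data.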
